A study of Mus musculus with 6 samples.

Results

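The 9 genes Syt1, Snap25, Syp, Map2, Tubb3, Stmn2, Dcx, Rbfox3 and Gad1, which encode proteins of neurons and their synapses, were followed in the accessible chromatin of mouse embryonic stem cells. An accessible region was assigned to a gene when its midpoint lay inside the annotated limits of the gene or within 50 kb of either limit on mm10, which gave 64 of 69689 regions. No region was assigned to more than 1 of the genes. Each region carries the name of 1 of 9 clusters given by the authors, and the sources used here do not say what accessibility pattern each name stands for. The genes were chosen by their cluster assignments, since neuronal genes had often been seen with a cluster 6 region at a gene end in these data, so the clusters around them are given as a description, with no test.

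The regions came from ACC-seq, which uses the transposase Tn5 to cut open DNA and insert sequencing adapters, in 6 libraries of the wild-type R1 embryonic stem cell line, 2 per group. Fix_1,6-Hex cells were held in 1,6-hexanediol (10% w/v), a small alcohol under which many condensates come apart, for 30 s, were then fixed for 10 min in 1% formaldehyde with the alcohol still present, and were tagmented at 55 °C. Fix cells were fixed for 10 min in 1% formaldehyde without the alcohol and tagmented at 55 °C, and Fresh cells were not fixed and were tagmented at 37 °C. Tagmentation lasted 30 min in all groups. All cells were grown on feeder layers of mouse embryonic fibroblasts in medium with serum, LIF, CHIR-99021 and PD0325901, and the feeder cells were removed by replating. R1 is a single cell line, and the labels do not say whether the libraries of a group came from separate cultures. The table covers the whole series without a value per library, so depth is unknown, no contrast of Fix_1,6-Hex with Fix or of Fix with Fresh could be computed for these genes, and no direction between treatments is given.

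Neurons release transmitter when calcium binds a sensor on the synaptic vesicle and SNARE proteins fuse the vesicle with the cell membrane. Embryonic stem cells do not form synapses, and in them and in other cells outside the nervous system the repressor REST holds many neuronal genes silent by binding a sequence element in or near these genes. Open chromatin at a gene end does not by itself show that the gene is transcribed. Of the genes that mark the labelled cell type, 9 of 10 embryonic stem cell genes had a region within 1 kb of a gene limit, with cluster 6 at Nanog, Klf4 and Utf1, cluster 4 at Pou5f1 and cluster 8 at Sox2. The same held for 8 of 12 fibroblast genes, the type of the feeder layer (Col1a1 in cluster 1, Col1a2 in cluster 9). It also held for 6 of 10 glial genes (Aldh1l1 in cluster 4, Olig1 in cluster 8), against 60.9% of all 21887 protein-coding genes. Cluster 6 was found at 3 of the 9 stem cell genes, 0 of the 8 fibroblast genes and 1 of the 6 glial genes. Over all protein-coding genes with a region within 1 kb of a limit, 6.7% had one of cluster 6. No difference between these short lists was tested. Whether feeder cells contributed to the regions described here was not tested.

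Promoter sequences were at hand from RefSeq (GRCm38.p6, the assembly also called mm10) for 7 of the 9 genes, and 4 are shown because they span the range seen among them. Each runs 5′ to 3′ over 300 bases, with 250 before the start site and 50 after it, and capitals mark every CpG dinucleotide. The promoters of Syt1 (chromosome 10, 109010926 to 109011225, minus strand) and Tubb3 (chromosome 8, 123411303 to 123411602, plus strand) lay in cluster 6 regions. That of Map2 (chromosome 1, 66175079 to 66175378, plus strand) lay at the only region within the limits of that gene, of cluster 8, and that of Dcx (chromosome X, 143933170 to 143933469, minus strand) had no accessible region.
Syt1: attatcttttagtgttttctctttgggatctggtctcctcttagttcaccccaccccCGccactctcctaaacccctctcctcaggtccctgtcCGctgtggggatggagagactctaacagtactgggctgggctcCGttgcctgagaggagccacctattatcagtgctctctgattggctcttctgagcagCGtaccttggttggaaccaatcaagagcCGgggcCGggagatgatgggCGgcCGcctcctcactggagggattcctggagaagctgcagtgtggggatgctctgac
Tubb3: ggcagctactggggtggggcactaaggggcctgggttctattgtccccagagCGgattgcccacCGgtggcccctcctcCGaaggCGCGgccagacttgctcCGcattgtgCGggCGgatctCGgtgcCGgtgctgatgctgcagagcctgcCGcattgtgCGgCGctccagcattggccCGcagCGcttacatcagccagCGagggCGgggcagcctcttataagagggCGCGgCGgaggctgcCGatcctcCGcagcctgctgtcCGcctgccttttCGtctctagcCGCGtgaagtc
Map2: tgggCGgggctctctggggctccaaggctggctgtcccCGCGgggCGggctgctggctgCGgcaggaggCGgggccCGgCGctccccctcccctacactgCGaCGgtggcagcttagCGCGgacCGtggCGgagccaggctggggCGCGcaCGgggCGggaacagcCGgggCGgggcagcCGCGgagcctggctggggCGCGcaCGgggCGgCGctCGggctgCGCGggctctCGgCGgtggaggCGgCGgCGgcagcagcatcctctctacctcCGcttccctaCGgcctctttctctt
Dcx: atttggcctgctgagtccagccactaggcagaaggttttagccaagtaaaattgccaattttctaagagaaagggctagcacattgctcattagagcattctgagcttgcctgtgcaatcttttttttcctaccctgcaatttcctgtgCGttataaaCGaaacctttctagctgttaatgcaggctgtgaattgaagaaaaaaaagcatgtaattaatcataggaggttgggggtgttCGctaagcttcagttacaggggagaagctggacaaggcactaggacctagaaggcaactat

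These promoters differed widely in CpG content. The Map2 promoter held 37 CpG dinucleotides and was 77.7% G and C, and the Tubb3 promoter held 26 and was 67.3% G and C. The Syt1 promoter held 8 at 56.7% G and C, and the Dcx promoter 3 at 43%. Relative to the number given by the base composition, the ratio of observed to expected CpG was 0.827 in Map2, 0.765 in Tubb3, 0.332 in Syt1 and 0.219 in Dcx, against a median of 0.567 over 21263 promoters of protein-coding genes.

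Gene ends were accessible at most of the 9 genes, and the clusters there were mixed. A region lay within 1 kb of a gene limit in 7 of the 9 genes, against 60.9% of all protein-coding genes, and all but Dcx and Rbfox3 were among them. Syt1 and Tubb3 had a cluster 6 region there, that is 2 of the 7, against 6.7% of the protein-coding genes with a gene-end region. Snap25, Syp and Map2 had a cluster 8 region (24.1% of such genes), Gad1 a cluster 1 region (21.6%), and Stmn2 a cluster 5 region (4.89%). Tubb3 had a further gene-end region, of cluster 9 (10.4%), at its other limit. None of the 9 had one of cluster 2, 3, 4 or 7, which were found at 9.63%, 14.3%, 13.5% and 5.68% of such genes. Over all protein-coding genes, with or without a gene-end region, 4.08% had one of cluster 6. Since the genes were chosen with cluster 6 in view, the count of 2 shows nothing about neuronal genes at large. With a window of 500 bp it was 1 of 4 genes, Syt1 alone, against 4.64% of the protein-coding genes with a region in that window.

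**Figure D1:**
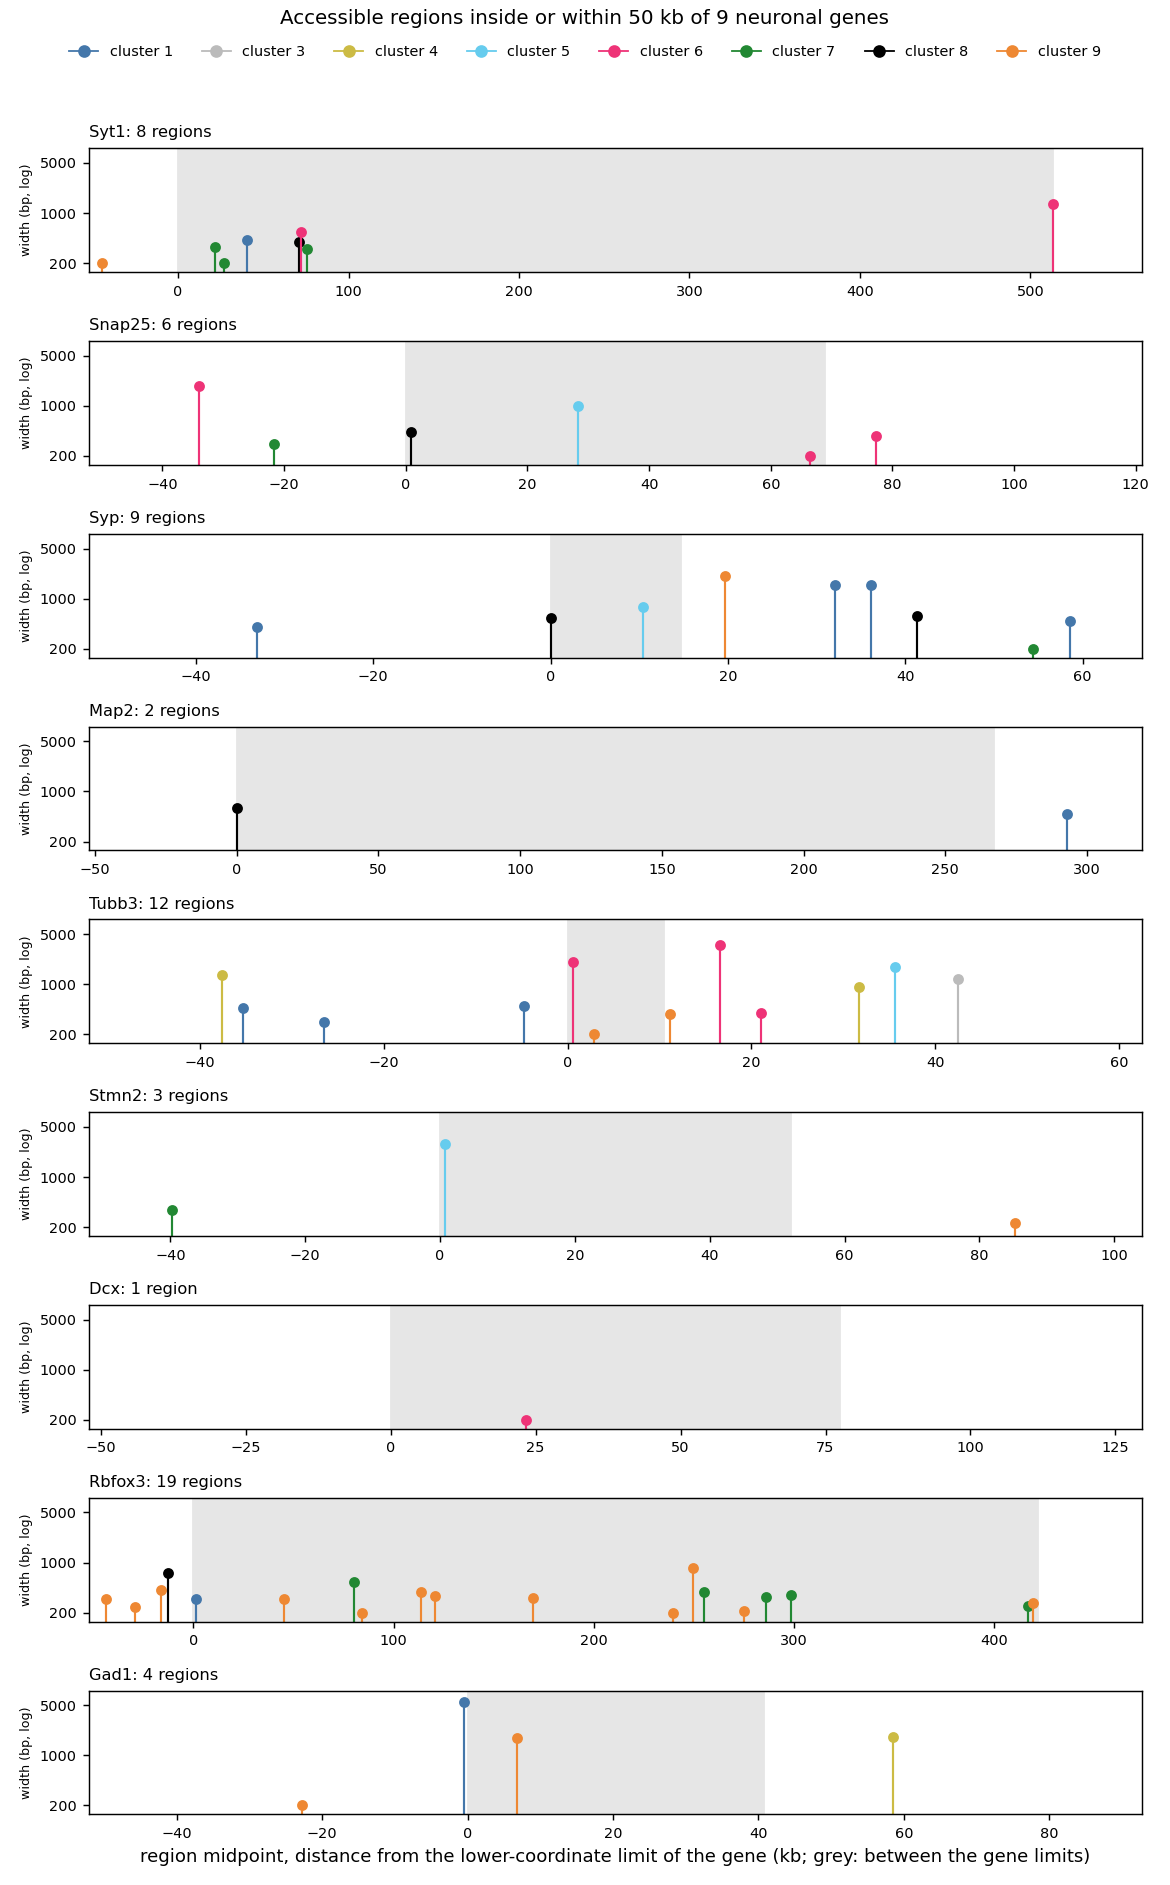
Each panel shows 1 gene, with every accessible region as a stem at the distance of its midpoint from the lower-coordinate limit of the gene (kb) and its width (bp, log axis) as the height. Colours give the cluster and grey the span of the gene. The 8 regions of Syt1 leave most of that gene empty, and 15 of the 19 of Rbfox3 lie inside Rbfox3.

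Syt1 encodes synaptotagmin 1, the calcium sensor of synaptic vesicles, and spans 513 kb (chromosome 10, 108497650 to 109010980, minus strand). It had 8 regions. The widest covered the start of the gene and belonged to cluster 6 (109010512 to 109011843, 1332 bp, midpoint 197 bp outside the 5′ limit). The 6 regions inside the gene all lay in the 75.3 kb next to its 3′ limit. These were 2 cluster 7 regions (108518968 to 108519308, 341 bp, and 108524618 to 108524817, 200 bp), a cluster 1 region (108537610 to 108538036, 427 bp) and a group of 3 neighbours. The neighbours belonged to cluster 8 (108568143 to 108568543, 401 bp), cluster 6 (108569782 to 108570322, 541 bp) and cluster 7 (108572839 to 108573152, 314 bp). A last region, of cluster 9 and 200 bp wide, lay 44.9 kb beyond the 3′ limit (108452665 to 108452864). Between the group of 3 and the region at the start, 437 kb or 85.2% of the gene held no accessible region. Of the 69649 gaps between adjacent regions on the assembled chromosomes, 1.02% were as long or longer, and the median gap was 11.1 kb. This share counts gaps by number, not by the length of genome they cover, so it understates how much of the genome lies in such gaps.

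Snap25, which encodes a SNARE protein of the cell membrane (chromosome 2, 136713439 to 136782428), had 6 regions, and cluster 6 held 3 of them. None of the 3 was at a gene end. The widest, of 1892 bp, lay 33.9 kb outside the lower-coordinate limit (136678577 to 136680468). The others flanked the upper limit, at 2.59 kb inside it (136779739 to 136779938, 200 bp) and 8.26 kb beyond it (136790499 to 136790872, 374 bp). The region at the gene end belonged to cluster 8 and was 436 bp wide (136714071 to 136714506), with its midpoint 849 bp inside the lower limit. Regions of this cluster are mostly broader, and 3.4% of them were narrower. A limit of Gm32659, a gene that does not code for protein, also lay within 1 kb of it. A cluster 5 region of 1008 bp lay inside the gene (136741290 to 136742297), and a cluster 7 region of 298 bp lay 21.6 kb outside it (136691666 to 136691963). Snap25 was nearer than any other protein-coding gene to all 6 regions.

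Syp encodes synaptophysin, a membrane protein of synaptic vesicles, and is short (14.7 kb, chromosome X, 7638580 to 7653256, plus strand). Only 2 of its 9 regions were nearer to Syp than to another protein-coding gene. The first was the cluster 8 region at its start (7638365 to 7638900, 536 bp, midpoint 0.052 kb past the start site). The other was a cluster 5 region of 766 bp inside the gene (7648615 to 7649380, 4.26 kb from the 3′ limit). Of the other 7 regions, 4 lay within 1 kb of a limit of a neighbouring gene. These neighbours were Ccdc22 (cluster 1, 7605232 to 7605629, 398 bp), Prickle3 (cluster 9, 7657277 to 7659337, 2061 bp), Plp2 (cluster 1, 7669866 to 7671421, 1556 bp) and Gpkow (cluster 1, 7696910 to 7697403, 494 bp). Inside Magix lay a cluster 1 region (7673881 to 7675447, 1567 bp) and a cluster 8 region (7679647 to 7680227, 581 bp). A cluster 7 region of 200 bp (7692930 to 7693129) lay between genes. The 4 cluster 1 regions counted for Syp were thus all nearest to other genes, and no cluster 6 region lay within 50 kb.

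The genes of the neuronal cytoskeleton included both the sparsest and the densest locus of the 9, Map2 with 0.544 and Tubb3 with 10.9 regions per 100 kb. The median was 2.84 over the 9 genes and 4.74 over all protein-coding genes, without matching for gene length. Map2, whose product binds microtubules in dendrites (chromosome 1, 66175202 to 66442583, plus strand), spans 267 kb and had 2 regions. A cluster 8 region of 587 bp lay at its start (66174948 to 66175534, midpoint 39 bp inside the 5′ limit). The other, of cluster 1 and 483 bp (66467923 to 66468405), lay 25.6 kb beyond the gene and 249 bp from the limit of Unc80, which encodes a subunit of a neuronal sodium leak channel. No other region lay in Map2, so that 99.9% of its length was without one. Gaps as long as its 292 kb or longer made up 1.93% of all gaps by number, which again does not weigh them by length.

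Tubb3 encodes the neuronal class of beta tubulin (chromosome 8, 123411553 to 123422015, plus strand) and had 12 regions in a window of 110 kb. The cluster 6 region at its start was 2014 bp wide (123411170 to 123413183), wider than 89.6% of cluster 6 regions, with its midpoint 0.623 kb past the start site. Beyond the 3′ limit lay 2 more cluster 6 regions, of 3470 bp (123426449 to 123429918, 6.17 kb away) and 396 bp (123432450 to 123432845, 10.6 kb away). The broad one was wider than 97.2% of cluster 6 regions. Between the cluster 6 regions lay 2 of cluster 9, at 123414299 to 123414498 (200 bp, inside the gene) and 123422467 to 123422855 (389 bp, 646 bp beyond the 3′ limit).

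The other 7 regions around Tubb3 were nearest to other genes, and none of them was in cluster 6. A cluster 1 region lay 275 bp from the limit of Mc1r, the melanocortin receptor of pigment cells (123406561 to 123407053, 493 bp). Inside Tcf25 lay a cluster 4 region (123373275 to 123374637, 1363 bp) and 2 cluster 1 regions (123376067 to 123376537, 471 bp, and 123384902 to 123385199, 298 bp). Inside Def8 lay regions of cluster 4 (123442789 to 123443699, 911 bp, 288 bp from a limit of Def8), cluster 5 (123446278 to 123448001, 1724 bp) and cluster 3 (123453405 to 123454569, 1165 bp). The narrow cluster 6 region 10.6 kb from Tubb3 was slightly nearer to Def8 (10309 bp).

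Stmn2 encodes a stathmin that binds tubulin in growing axons (chromosome 3, 8509527 to 8561604) and had 3 regions. A cluster 5 region of 2841 bp covered its lower-coordinate limit (8508870 to 8511710, midpoint 763 bp inside), and it was wider than 96.3% of its cluster. The other 2 were narrow and outside the gene, of cluster 7 (8469602 to 8469948, 347 bp, 39.8 kb away) and cluster 9 (8594737 to 8594961, 225 bp, 33.2 kb away). Apart from the region at its limit, 95.8% of the gene held none.

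Dcx, whose product doublecortin binds microtubules in migrating young neurons, had the fewest regions (chromosome X, 143855842 to 143933396, minus strand). Its single region belonged to cluster 6, was 200 bp wide, the narrowest width in the table, and lay inside the gene 53.9 kb downstream of the nearest start site (143879121 to 143879320). Neither of its 2 listed start sites had a region. The nearest region outside the window was 191 kb away.

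Rbfox3 encodes NeuN, a splicing regulator used as a stain for mature neurons (chromosome 11, 118489760 to 118911597, minus strand), and had the most regions of the 9 genes. Of its 19 regions, 17 belonged to clusters 7 and 9, which held 18.9% and 26.2% of all regions. None belonged to cluster 6, which held 12.7% of all regions. No region lay within 1 kb of either limit of the gene, and the nearest to a limit was 1.19 kb inside the 3′ one. The start site in the promoter table lies inside the gene limits, and its promoter overlapped no region. The 19 regions were 200 to 833 bp wide, with a median of 321 bp, against 474 bp over all regions. The widest of them was wider than 71% of all regions.

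Inside Rbfox3 lay 9 of its 12 cluster 9 regions. From the 3′ limit towards the 5′ limit, these were at 118534696 to 118535006 (311 bp), 118573675 to 118573874 (200 bp), 118603150 to 118603542 (393 bp), 118610095 to 118610438 (344 bp) and 118659323 to 118659643 (321 bp). They went on at 118729436 to 118729635 (200 bp), 118738927 to 118739759 (833 bp), 118764776 to 118764987 (212 bp) and 118909123 to 118909399 (277 bp). The 5 cluster 7 regions were all inside the gene as well, at 118569644 to 118570174 (531 bp), 118744830 to 118745221 (392 bp), 118775660 to 118775991 (332 bp), 118788293 to 118788647 (355 bp) and 118906617 to 118906863 (247 bp). Regions of both clusters were thus interspersed along the gene, and the longest stretch inside it without a region was 118 kb, or 28% of its length.

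The remaining regions of Rbfox3 lay at or beyond its 3′ limit. The region 1.19 kb inside that limit belonged to cluster 1 and was 306 bp wide (118490799 to 118491104). A cluster 8 region of 723 bp (118476607 to 118477329) lay 12.8 kb beyond it and 166 bp from the limit of Engase, an enzyme that removes sugar chains from proteins. Cluster 9 regions lay 16.4 kb (118473185 to 118473602, 418 bp), 29.3 kb (118460354 to 118460592, 239 bp) and 43.7 kb (118445892 to 118446203, 312 bp) beyond the 3′ limit of Rbfox3. The nearest protein-coding gene was Engase for the first and C1qtnf1 for the others, and the last lay inside C1qtnf1.

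Gad1 encodes the enzyme that makes the inhibitory transmitter GABA (chromosome 2, 70561303 to 70602014, plus strand) and had 4 regions. The region at its start belonged to cluster 1 and was 5522 bp wide (70558101 to 70563622), the widest of the 64 and wider than 99.7% of all regions. A cluster 9 region of 1748 bp followed inside the gene (70567280 to 70569027), wider than 98.4% of its cluster. Outside the gene lay a cluster 4 region of 1802 bp at 17.7 kb (70618859 to 70620660), which had limits of the noncoding genes Gm16510 and Gm46745 within 1 kb. A cluster 9 region of 204 bp lay 22.7 kb away inside Erich2 (70538455 to 70538658). No cluster 6 region was assigned to Gad1.

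**Figure D2:**
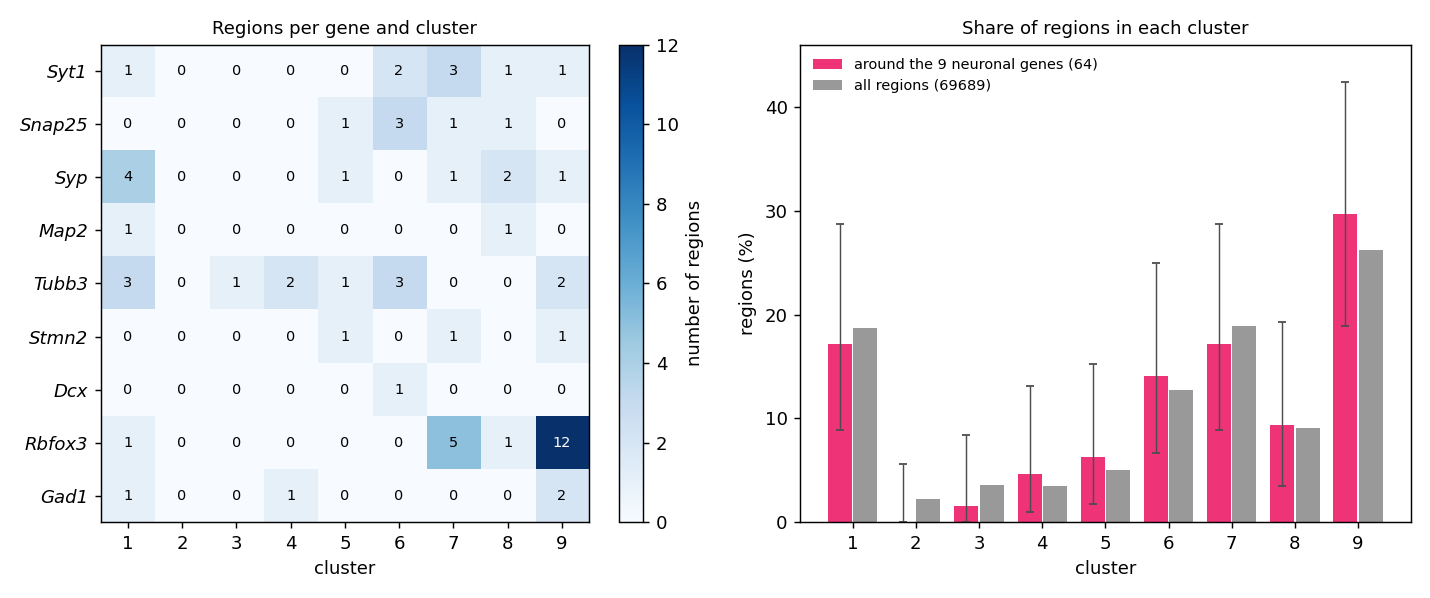
The left panel gives the number of regions of each cluster (columns) for each gene (rows), and the right panel the share of regions (%) in each cluster around the 9 genes beside that among all regions. Error bars are exact binomial 95% intervals, which treat regions as independent and cover counting only. They are no test against the share among all regions.

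Taken over all 64 regions, the clusters around the 9 genes were close to those of the whole table. Cluster 6 held 9 of the 64 regions (14.1%, exact binomial 95% interval 6.64 to 25), against 12.7% of all regions. Cluster 9 held 19 (29.7%, 18.9 to 42.4), against 26.2%, and cluster 7 held 11 (17.2%, 8.90 to 28.7), against 18.9%. Cluster 1 also held 11 (17.2%, against 18.7%), cluster 8 held 6 (9.38%, against 9.04%), cluster 5 held 4 (6.25%, against 5.06%), cluster 4 held 3 (4.69%, against 3.47%) and cluster 3 held 1 (1.56%, against 3.61%). Cluster 2, with 2.27% of all regions, had none. The intervals treat regions as independent, which neighbours in 1 locus are not, and they cover counting only.

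The pooled shares hid large differences between the genes. The 9 cluster 6 regions came from 4 genes, with 3 each at Snap25 and Tubb3, 2 at Syt1 and 1 at Dcx, while 43.9% of protein-coding genes had at least 1 within 50 kb. All 9 genes had some region in that window, against 88.1% of protein-coding genes. Clusters 1 and 9 were each found around 6 of the 9 (63.3% and 67.5% of protein-coding genes), clusters 7 and 8 each around 5 (57.2% and 48.6%), and cluster 5 around 4 (23.3%). Cluster 4 was found around 2 (27.4%), cluster 3 around 1 (28%) and cluster 2 around none (19.3%). Rbfox3 alone gave 12 of the 19 cluster 9 regions. Without it, the share of cluster 9 was 15.6% of 45 regions, below the 26.2% of all regions, so the pooled share of that cluster rests on this gene. Most cluster 1 regions around these genes lay at neighbours. Only 3 of the 11 were nearest to 1 of the 9 genes, against 8 of 9 for cluster 6. For cluster 7 it was 10 of 11 and for cluster 9 it was 13 of 19. Of the 11 cluster 1 regions, 4 were around Syp and 3 around Tubb3. Around Syp only 2 of 9 regions of any cluster were nearest to the gene, and around Tubb3 only 4 of 12. The same share was not computed for other genes, and whether it depends on the cluster was not tested.

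**Figure D3:**
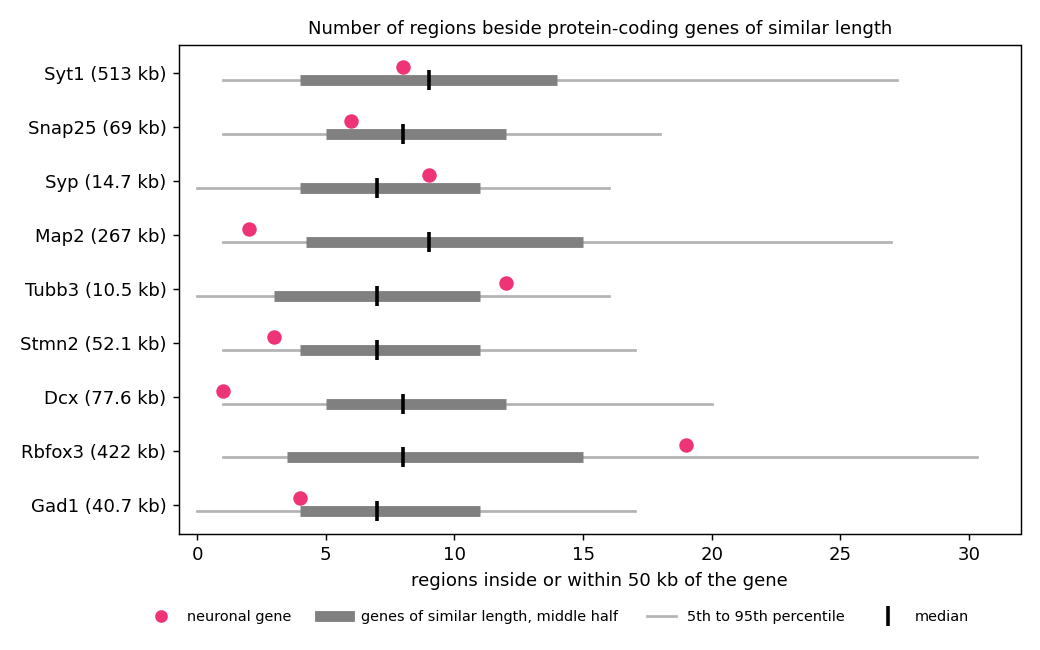
Points give the number of regions inside or within 50 kb of each gene, and bars the same for protein-coding genes of 0.8 to 1.25 times its length (thick: lower to upper quartile; thin: 5th to 95th percentile; tick: median). Map2, Stmn2 and Dcx lie below the quartile range, Tubb3 and Rbfox3 above it, and the other 4 within it.

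The number of regions also varied beside genes of similar length, taken as 0.8 to 1.25 times that of the gene. Over the 9 genes the median was 6 regions, against 7 over all protein-coding genes (quartiles 3 and 11). Dcx had 1, against a median of 8 over 1510 genes of similar length, 7.48% of which had as few or fewer. Map2 had 2, against a median of 9 over 442 genes (13.1% as few or fewer), and Stmn2 had 3, against 7 over 1941 genes (19.7%). At the other end, Rbfox3 had 19, against a median of 8 over 255 genes (15.3% had more), and Tubb3 had 12, against 7 over 2248 genes (19% had more). Syt1, Snap25, Syp and Gad1 had 8, 6, 9 and 4 regions, against medians of 9, 8, 7 and 7. None of the 9 counts lay outside the 5th to 95th percentiles of genes of similar length.

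Region widths were near those of the table as a whole. The median over the 64 regions was 399.5 bp, against 474 bp over all regions, and 15 regions (23.4%) were wider than 1000 bp, against 23.1%. The smallest width in the table, 200 bp, was found in 8 of the 64 (12.5%), against 6.6%. The 8 gene-end regions had a median of 959.5 bp (389 to 5522), the 27 inside genes 332 bp (200 to 1748) and the 29 outside genes 483 bp (200 to 3470). By cluster, the 6 cluster 8 regions had a median of 558.5 bp, against 865 bp for all of that cluster, and the 4 cluster 5 regions had 1366 bp, against 817 bp.

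The distance of 50 kb set which regions entered. The farthest regions inside it were the cluster 9 region 44.9 kb from Syt1 and the cluster 1 region 43.9 kb from Syp. Just outside were a cluster 9 region of 306 bp at 50.1 kb from Tubb3, a cluster 6 region of 1134 bp at 51.2 kb from Syt1 and a cluster 8 region of 789 bp at 52 kb from Gad1.

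**Figure D4:**
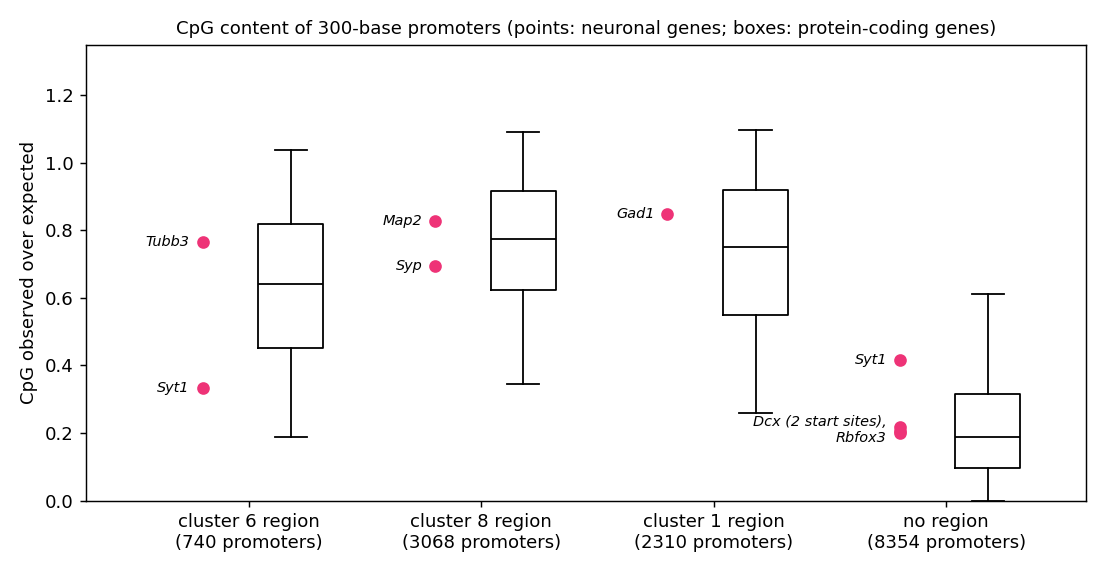
CpG observed over expected in 300-base promoters, for the listed start sites of the neuronal genes (points, left) and for all protein-coding genes (boxes, right: median, quartiles, whiskers at the 5th and 95th percentiles), by the accessible region that overlaps the promoter. The Syt1 start site at 0.332 is the only point with a region that lies below 0.6.

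Accessibility at the start sites went with CpG content in most of these genes. The promoters of Map2 (0.827 CpG observed over expected), Gad1 (0.849), Tubb3 (0.765) and Syp (0.696) overlapped a region, and among promoters within 0.05 of each of these values 92.8% to 97.5% did so. Both start sites of Dcx (0.219 and 0.201) and that of Rbfox3 (0.205) had none, as was the case for most promoters of such values, of which 14.4% to 16.8% overlapped a region. Syt1 stood between. Its outer start site (0.332) lay in the cluster 6 region, where 31.7% of promoters of that value overlapped any region and 3.23% one of cluster 6. Its inner start site (0.415, 109009062 to 109009361) had none, against 51% with a region.

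Within cluster 6, the 2 promoters lay in different parts of the range. The 740 promoters that overlapped a cluster 6 region had a median of 0.641, against 0.773 for the 12909 that overlapped any region, and 15.9% of them were below Syt1 and 65.4% below Tubb3. A search of both strands for CAGCACC and GGACAG, the 2 parts of the REST element, found CAGCACC in the Tubb3 promoter and in no other of the 9 promoters of these genes (7.24% of all promoters). GGACAG was found in Map2, Tubb3 and the outer start site of Syt1 (22.3% of all promoters). Both parts in order and 2 bases apart were found in none of them and in 10 of all 21263 promoters. These letters were looked for in the 300 bases only, and nothing follows from them about binding of REST.

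Other genes of the same functions, taken from lists written from general knowledge, had gene-end regions in a share near that of genes at large. With the window of 1 kb, the share of these with cluster 6 was also near that of genes at large. Of 94 genes in 5 neuronal lists that left out the 9, 63 had a gene-end region (67%, against 60.9% of protein-coding genes) and 5 had one of cluster 6 there (7.94% of 63, against 6.7%). With a window of 500 bp the count in cluster 6 was 1 of 48, against 4.64% of protein-coding genes with a region in that window. Cluster 1 was found at 22 of the 63 and cluster 8 at 19. Both were larger shares than the 21.6% and 24.1% over protein-coding genes with a gene-end region, which was not tested. The lists were written with earlier results of these data known.

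Genes of synaptic vesicles and release had such regions in 22 of 25 cases (60.9% of protein-coding genes). Cluster 8 was found at 8 of the 22 and cluster 6 at 1, against 24.1% and 6.7% of protein-coding genes with a gene-end region. The gene in cluster 6 was Erc2, a scaffold of the release site (2032 bp). Vamp2, the vesicle partner of SNAP25, had regions of clusters 8 and 9, and Stx1a, their SNARE partner in the cell membrane, had one of cluster 8 (677 bp). Postsynaptic receptors and scaffolds had one in 14 of 24 cases, against the same 60.9%. The region of Dlg2, a scaffold, belonged to cluster 2 and that of Shank1 to cluster 4.

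Among cytoskeletal genes, 11 of 19 had a gene-end region (60.9% of protein-coding genes), with cluster 6 at Nefm, a neurofilament subunit (2537 bp). Map1a, a microtubule-associated protein, had one of cluster 8 (806 bp), and so did Nefl, the neurofilament light chain (3661 bp). Transmitter genes had one in 8 of 14 cases, with cluster 6 at 2 of the 8 (6.7% of protein-coding genes with a gene-end region). These were Gad2, the second enzyme of GABA synthesis (659 bp), and Slc17a7, a glutamate transporter of vesicles (2239 bp), and Slc17a6, its relative, and Chat, which makes acetylcholine, had one of cluster 1. Gad1 and Gad2 thus had different clusters at their gene ends, 1 and 6. Neuronal RNA-binding genes had one in 8 of 12 cases (60.9% of protein-coding genes), and Elavl2 and Elavl3 were in cluster 1. None of the 8 had one of cluster 6, against 6.7% of protein-coding genes with a gene-end region.

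Further lists held relatives of 7 of the genes by sequence family or by name, and some genes named above. None of their gene-end regions was in cluster 6, against 6.7% of protein-coding genes with a gene-end region, and the lists are short. Of 12 further synaptotagmin genes, 10 had a gene-end region (60.9% of protein-coding genes). Cluster 1 was found at 6 of them and cluster 6 at none, against 21.6% and 6.7% of protein-coding genes with such a region. Syt2 and Syt4 were the first of cluster 1 in the list. Snap23 was in cluster 3 and Snap29 in cluster 2. Of 7 other beta tubulin genes, 4 had one (60.9% of protein-coding genes), with Tubb2a in cluster 8 and Tubb2b in cluster 2. Stmn1 was in cluster 2, and Stmn3 had regions of clusters 1 and 8. Sypl was in cluster 3 and Synpr in cluster 8. Dclk1 was in cluster 7 and Dclk2 in cluster 8. The tau gene Mapt, named after its values were seen, had no gene-end region. It had 7 cluster 6 regions among 17 within 50 kb, against 12.7% of all regions. The other genes of the list of Map2 relatives had 0 to 6 cluster 6 regions. Rbfox1 and Rbfox2 had no gene-end region, like Rbfox3. Rest itself had a cluster 8 region of 1940 bp. Of 12 genes of REST and its corepressors, 10 had a gene-end region (60.9% of protein-coding genes), among them Rcor1 in cluster 5. None of the 10 had one of cluster 6, against 6.7% of protein-coding genes with a gene-end region.

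Likeness of a locus was measured by the sum of absolute differences between the 9 cluster counts within 50 kb, over protein-coding genes whose windows did not meet, for the genes with at least 10 regions. The gene most like Rbfox3 was Sorcs2 (chromosome 5, 381 kb), with 21 regions, 11 of cluster 9 and 6 of cluster 7, and a summed difference of 4. Tubb3 had Tomm40l and Apoa2, neighbours on chromosome 1 that share regions, as most alike, each with 11 regions, 3 of cluster 6 and a summed difference of 1.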

How the data were processed

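Per the submitters' processing notes, the tools were Bowtie2 2.3.3.1, SAMtools 1.6, cutadapt 1.18 and Picard, with mm10 as the build. How the authors called, merged and clustered regions, and the depth, are not stated in those notes or the labels. The deposited table holds positions and a cluster name per region, with no value per library, and no signal, count or score was deposited in it. Starts were counted from 0 in the table and from 1 here. Groups were taken from the sample titles.

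Regions were placed by midpoint against 21887 protein-coding genes of RefSeq (GRCm38.p6, without mitochondrial genes); a gene-end region lay within 1 kb of either limit. Promoters came from RefSeq. The members and lists were chosen with earlier results of these data known. No test was run: values are set beside all regions and all protein-coding genes, and shares have exact binomial 95% intervals. All 9 genes are named with all regions, neighbours where a limit lies within 1 kb or holds the region, and from each list the first 3 genes in cluster 6 and the first 2 others, except for 2 genes that are not reported here. Mapt, Rbfox1 and Rbfox2 were named after their values were seen, and the comparison of promoters of like CpG content was added then. Placement was checked on planted regions. The work was done with SciPy 1.17.1, pandas 2.3.3, matplotlib 3.10.9 and numpy 2.4.6 in Python 3.11.15.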

Additional observations from a re-analysis of the deposited data

How the results depend on the processing

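No paired analysis was possible because the table holds no value per library; the contrasts between groups, with a replicate term or without each replicate, were not run for the same reason. The 64 regions became 105 within 100 kb, 32 inside the gene limits only and 42 when only regions nearest to 1 of the 9 genes were kept. The share of cluster 6 ranged from 10.3% to 20% over the 15 alternatives, within the interval of the main value. The alternatives share regions with the main set, and the interval is wide and treats regions as independent. Lying within it therefore says little about stability. With a window of 500 bp, 4 of the 9 genes had a gene-end region (49.3% of protein-coding genes) and 1 had cluster 6 there, against 4.64% of the protein-coding genes with such a region. In the 5 neuronal lists, 48 genes had one and 1 of the 48 was in cluster 6. With start sites only, 4 of the 7 genes in the promoter table had a region, and 2 had one of cluster 6. Gad1 was not among the 4, since the midpoint of its broad region lies over 1 kb from the start site. The share of all protein-coding genes with this setting was not computed. Without Syt1, or without Tubb3, the count in cluster 6 was 1. The share of cluster 1 was 6.25% inside gene limits and 7.14% among regions nearest to the genes, against 17.2%. Over all annotated genes, 37.6% had a gene-end region and the median number of regions was 4. Depth limits which regions were called and is unknown.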
